A study of Mus musculus with 7 samples.

Results

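Transcript levels of 10 genes of the nuclear lamina and the inner nuclear membrane were followed in mouse epicardial explants that lack lamin B1. They are the lamin genes Lmnb1, Lmnb2 and Lmna, the inner membrane protein genes Lbr, Tmpo, Emd, Lemd3 and Tor1aip1, the chromatin bridge gene Banf1 and the prelamin protease gene Zmpste24. The genes were chosen by name for their place in this structure, with earlier results of these data known. Each matched 1 of the 22738 gene rows in every deposited table. All 10 passed the filter on low counts and are among the 10775 genes tested.

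The explants came from E12.5 embryos on a mixed background of C57BL/6, 129S4Sv/Jae and 129S6/SvEvTac. The Lmnb1-/- group has 3 libraries and the wild type group 4, and the labels record no treatment in either. Ventricles were laid on gelatin for 48 hours, the hearts were taken away, and the cells that had migrated out grew for a further 72 hours before RNA extraction. The mutation is given as Lmnb1-/- with no allele, driver or cell type restriction, so the absence of Lmnb1 is not described as limited to the epicardium. The labels do not say whether replicates are separate embryos, and the p-values measure the spread between these libraries, whatever its source. By its title the study concerns lamin B1 in the migration and function of the epicardium, and the question followed here is whether the other lamins or their partners changed when it was missing.

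Lamins are intermediate filament proteins that form a meshwork under the inner nuclear membrane. B-type lamins, encoded by Lmnb1 and Lmnb2, keep a farnesyl lipid anchor and stay at the membrane, whereas lamin A loses its anchor when the protease encoded by Zmpste24 cuts prelamin A. The membrane proteins tie the lamina to chromatin: the lamin B receptor (Lbr) binds B-type lamins and heterochromatin protein 1, and the LEM domain proteins LAP2 (Tmpo), emerin (Emd) and MAN1 (Lemd3) bind the small DNA-bridging protein BAF (Banf1). LAP1, encoded by Tor1aip1, binds lamins and activates torsin ATPases.

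Total counts were 1786519 to 3066936 in the Lmnb1-/- libraries and 1024898 to 2732236 in the wild type libraries, so that 3 counts correspond to between 0.978 and 2.93 CPM, the count scaled to the size of its library. All 3 Lmnb1-/- libraries and wild type replicates 2 and 4 were male by Xist and Y-linked counts, and wild type replicates 1 and 3 were female. The epicardial genes Wt1, Tbx18, Tcf21 and Aldh1a2 were detected in every library. Levels below are CPM after scaling by the trimmed mean of M-values (TMM), and fold changes are Lmnb1-/- over wild type from the quasi-likelihood test of edgeR; p-values were adjusted over all genes tested by Benjamini and Hochberg's method, and a gene was called at an adjusted p under 0.05. These are bulk samples, in which fewer cells of a type and less RNA per cell cannot be told apart.

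Lmnb1 was the single member called. It stood at 1.28, 1.12 and 2.04 CPM in Lmnb1-/- replicates 1 to 3, against 200.3, 190.1, 182.8 and 237.8 CPM in wild type replicates 1 to 4. These levels are 4, 2 and 4 counts in the mutant libraries and 463, 185, 488 and 567 counts in the wild type libraries. The groups lay far apart, and the knockout labels held in each of the 7 libraries. The log2 fold change was -7.07 (SE 0.22, edgeR adjusted p = 3.66e-10), which ranked 1 in size among all genes tested. Pooled over libraries and divided by the totals, the mutant counts amount to 0.732% of wild type (exact 95% interval 0.351 to 1.35%, for counting error alone). The tables give 1 count per gene, so the part of the transcript that the remaining reads came from was not analysed here.

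Lmnb2, the gene of the other B-type lamin, was not called. Its levels were 47.6, 69.2 and 64.9 CPM in Lmnb1-/- replicates 1 to 3 and 67.0, 36.0, 45.0 and 51.6 CPM in wild type replicates 1 to 4. The groups overlapped: Lmnb1-/- replicate 1 lay below wild type replicate 4, and wild type replicate 1 lay above Lmnb1-/- replicate 3. The log2 fold change was 0.24 (SE 0.20, edgeR adjusted p = 0.634). Its 95% interval ran from -0.19 to 0.66, or 0.878-fold to 1.59-fold. Leaving out 1 library moved the log2 fold change between 0.14, without Lmnb1-/- replicate 2, and 0.41, without wild type replicate 1. It was -0.01 with groups of neighbouring library numbers as a term, and no setting gave a call. With that term wild type replicates 2 and 3 form a group without a mutant library, so they do not inform the fold change. Lmnb2 had few reads, and the 35 counts of wild type replicate 2 allow 25.05 to 50.01 CPM from counting error alone (exact Poisson 95% interval).

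Lmna, which encodes lamins A and C, was the most abundant member. It stood at 1066, 987 and 989 CPM in Lmnb1-/- replicates 1 to 3 and at 1203, 1049, 976 and 918 CPM in wild type replicates 1 to 4. The mutant values lay inside the wild type range. The log2 fold change was -0.03 (SE 0.11, edgeR adjusted p = 0.935) with a 95% interval of -0.27 to 0.21, the narrowest of the 10 genes. Reads of lamin A and lamin C transcripts are summed in this count, so a shift between the isoforms would not be seen.

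**Figure D1:**
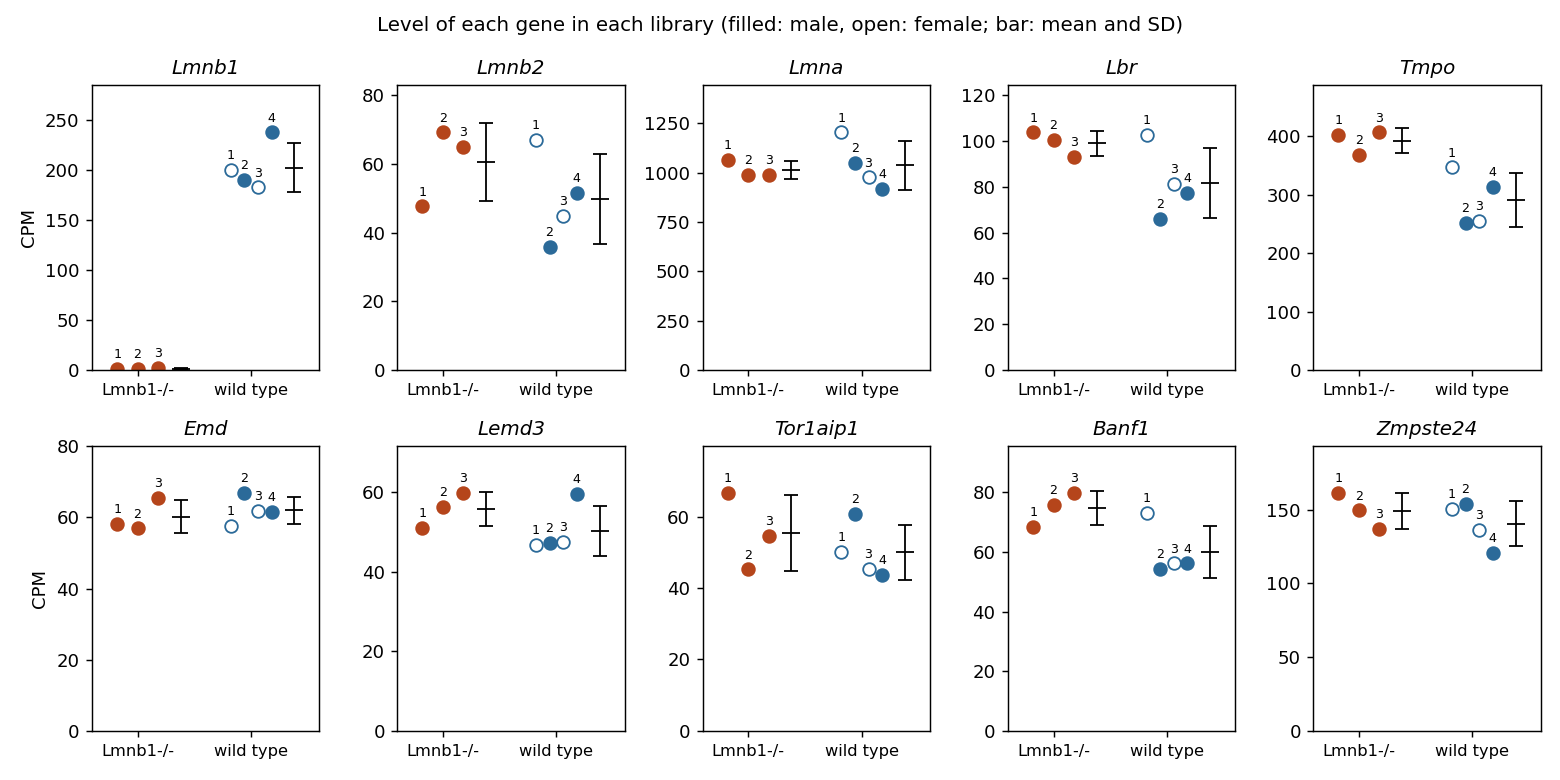
Level of each of the 10 genes in CPM (linear axes from 0, a scale per gene) in the 3 Lmnb1-/- libraries (left) and the 4 wild type libraries (right). Each point is a library with its replicate number, filled for male and open for female, and the bar beside the points is the mean and SD; Lmnb1 is near 0 in the mutant libraries, Tmpo is the 1 gene whose mutant points all lie above its wild type points, and the other 8 genes overlap.

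To set the lamins beside each other, CPM were divided by the exon length of each gene in kilobases, from a GRCm38 annotation. On this scale of level per length, Lmna was at 173.7 ± 7.73 in Lmnb1-/- and 177.5 ± 21.1 in wild type explants (SD, n = 3 and 4). Lmnb1 was at 0.499 ± 0.167 in Lmnb1-/- and 68.4 ± 8.25 in wild type explants, and Lmnb2 was at 14.1 ± 2.66 in Lmnb1-/- and 11.6 ± 3.06 in wild type explants. B-type lamin RNA, the sum of Lmnb1 and Lmnb2, was 11.5, 16.5 and 15.8 in Lmnb1-/- replicates 1 to 3 and 83.3, 72.6, 72.2 and 92.3 in wild type replicates 1 to 4. The mutant explants therefore held 0.183 times the wild type level of B-type lamin RNA, nearly all of it from Lmnb2.

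The difference in mean Lmnb2 level per length was 2.49, against a difference of -67.9 for Lmnb1, so that the Lmnb2 difference amounts to 3.67% of the size of the Lmnb1 difference. This share rests on single libraries: leaving out Lmnb1-/- replicate 1 gave 5.89% and Lmnb1-/- replicate 2 gave 2.20%, while leaving out wild type replicate 1 gave 5.61% and replicate 2 of that group 2.03%. Lmnb2 would have to stand at 6.84 times its wild type level for the sum of both genes to be equal in the groups, against an upper end of 1.59-fold for its interval over all 7 libraries. All 3 lamin genes together summed to 188.3 ± 5.06 in Lmnb1-/- and 257.6 ± 21.9 in wild type explants (SD, n = 3 and 4). Lmnb1 made up 0.266% of this sum in Lmnb1-/- and 26.7% in wild type explants. The share of Lmna was 92.2% in Lmnb1-/- and 68.8% in wild type explants, and that of Lmnb2 was 7.53% in Lmnb1-/- and 4.49% in wild type explants. These shares must move when 1 of the 3 genes is lost, so they carry no test, and RNA does not give the amount of protein.

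**Figure D2:**
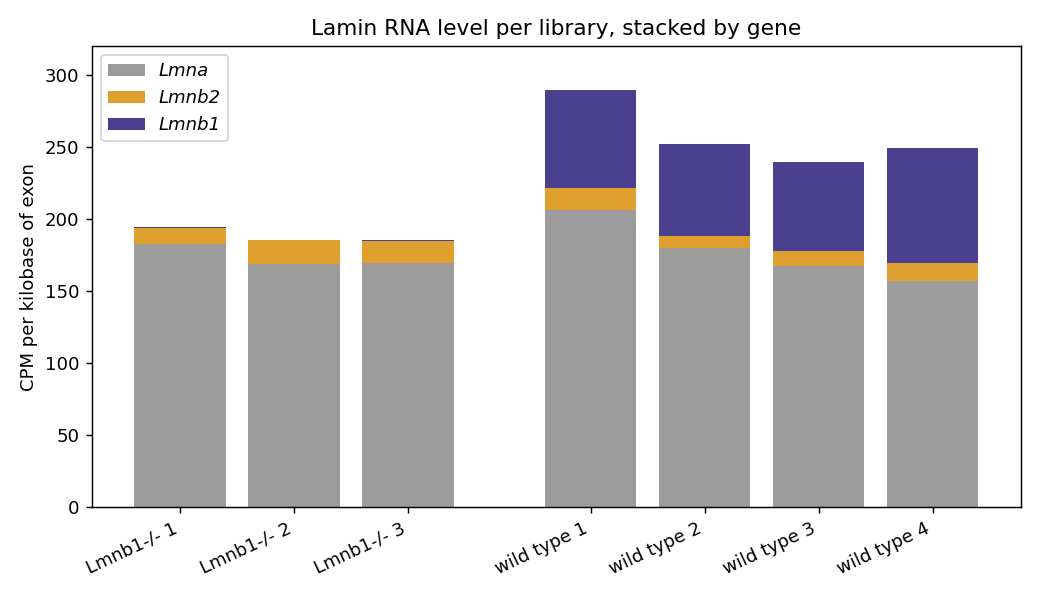
Lamin RNA in each library as CPM per kilobase of exon, stacked for Lmna (bottom), Lmnb2 and Lmnb1 (top), with the 3 Lmnb1-/- libraries left of the 4 wild type libraries. Lmnb1 is missing from the mutant bars, and the part below it, Lmna and Lmnb2, sums to 184.6 to 193.7 in Lmnb1-/- and 169.2 to 221.7 in wild type libraries.

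Among the membrane partners, Tmpo had the largest difference, which did not pass the test. Tmpo encodes the LAP2 proteins, of which LAP2 beta binds B-type lamins and LAP2 alpha, which has no membrane span, binds lamin A in the nuclear interior. Its levels were 403, 368 and 406 CPM in Lmnb1-/- replicates 1 to 3 and 346, 252, 255 and 313 CPM in wild type replicates 1 to 4. Each mutant library was above each wild type library, with the smallest gap between Lmnb1-/- replicate 2 and wild type replicate 1. Such a separation upwards was found in 6.34% of all genes tested. The log2 fold change was 0.42 (SE 0.12, 95% interval 0.16 to 0.69, edgeR adjusted p = 0.141), or 1.34-fold. Leaving out wild type replicate 1 gave 0.52 with an edgeR adjusted p of 0.0316, and leaving out any other library gave 0.36 to 0.47 and no call. With groups of neighbouring library numbers as a term, where wild type replicates 2 and 3 do not inform the fold change, it was 0.27 (edgeR adjusted p = 0.350). The LAP2 isoforms share 1 count, so they cannot be told apart. Exons of Tmpo also overlap those of the noncoding gene Gm26765 on the opposite strand.

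Lbr, the lamin B receptor, was at 104, 100.4 and 93.0 CPM in Lmnb1-/- replicates 1 to 3 and at 103, 65.8, 81.3 and 77.2 CPM in wild type replicates 1 to 4. The mutant libraries lay close together, and of the wild type libraries only replicate 1 reached their range. The log2 fold change was 0.26 (SE 0.14, edgeR adjusted p = 0.447) with an interval of -0.04 to 0.57. Lbr thus showed no detectable fall when the lamin it is named for was missing, and a fall beyond 0.971-fold lies outside the interval. Exons of Lbr overlap those of Dnah14 on the opposite strand, and reads there cannot be assigned to either gene.

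The other LEM domain genes and LAP1 were not called, and in each the groups overlapped. Emd was at 58.2, 56.9 and 65.4 CPM in Lmnb1-/- and 57.5, 66.8, 61.8 and 61.6 CPM in wild type explants, with a log2 fold change of -0.04 (SE 0.13, edgeR adjusted p = 0.935). Emd is X-linked, and its 2 male wild type libraries were at 66.8 and 61.6 CPM and its 2 female ones at 57.5 and 61.8 CPM. Lemd3, whose product MAN1 also binds receptor-regulated Smads and dampens TGF-beta and BMP signalling, was at 51.2, 56.3 and 59.8 CPM in Lmnb1-/- and 46.7, 47.3, 47.6 and 59.5 CPM in wild type explants. Its log2 fold change was 0.14 (SE 0.15, edgeR adjusted p = 0.719). Wild type replicate 4 lay within the mutant range and the other wild type libraries lay below it.

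Tor1aip1 was the most uneven of the membrane partners in the mutant group, at 66.5, 45.2 and 54.7 CPM, against 50.2, 60.6, 45.3 and 43.6 CPM in wild type explants. Its log2 fold change was 0.19 (SE 0.17, edgeR adjusted p = 0.657). Its count carries 2 uncertainties. It had 9.65% of its reads in the second count column of the tables, which was not used, and its exons overlap those of Tor1aip2 on the opposite strand, in a library kit that does not keep strand.

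Banf1, whose product BAF cross-links DNA and holds LEM domain proteins on chromatin, was at 68.4, 75.9 and 79.7 CPM in Lmnb1-/- replicates 1 to 3 and at 73.1, 54.5, 56.2 and 56.2 CPM in wild type replicates 1 to 4. Wild type replicate 1 lay inside the mutant range and the other 3 wild type libraries lay below it. The log2 fold change was 0.30 (SE 0.14, 95% interval -0.00 to 0.61, edgeR adjusted p = 0.370). Exons of Banf1 overlap those of Eif1ad on the opposite strand, and reads of the 2 genes cannot be separated there.

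Zmpste24 was at 161, 149 and 137 CPM in Lmnb1-/- and 151, 154, 136 and 121 CPM in wild type explants, with a log2 fold change of 0.10 (SE 0.12, edgeR adjusted p = 0.762). The groups overlapped. The step before this cleavage, in which prelamin A and B-type lamins are farnesylated, trimmed and methylated, was covered by Fnta, Fntb, Rce1 and Icmt. Together with Zmpste24 their log2 fold changes had a median of 0.10, and 0 of the 5 changed by edgeR, at an unadjusted p under 0.05 or by DESeq2 or limma voom. Fnta, a subunit of farnesyltransferase, and Icmt, the methyltransferase, had log2 fold changes of 0.13 and 0.09.

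**Figure D3:**
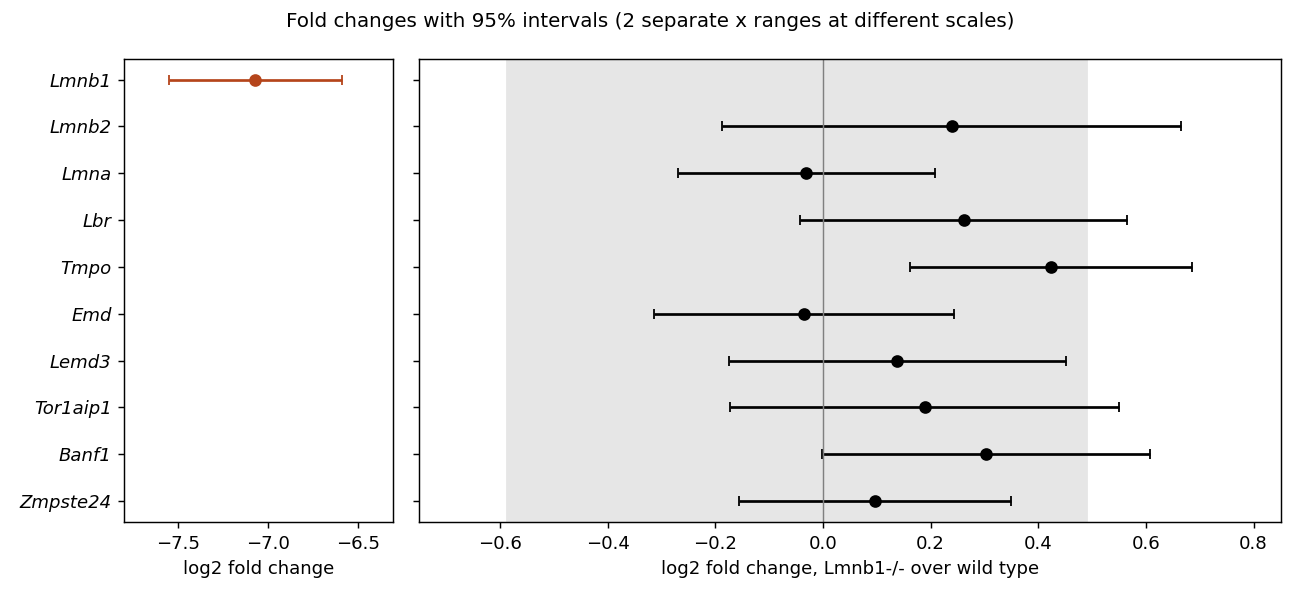
Log2 fold change of each gene, Lmnb1-/- over wild type, with its 95% interval from the edgeR fit; the left panel holds Lmnb1 at -7.07 and the right panel, at another scale, the other 9 genes between -0.04 and 0.42. The grey band spans the middle 90% of all genes tested, from -0.59 to 0.49, and all 9 point estimates lie within it.

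In all, 1 of 10 members was called lower and 0 higher by edgeR, against 0.343% called lower and 0.362% called higher of all genes tested. The call was that of the targeted gene. DESeq2 and limma voom also called 0 higher, and at an unadjusted p under 0.05 there was 1, Tmpo. That unadjusted threshold was passed, in either direction, by 13.7% of all genes tested. Of the 9 genes other than Lmnb1, 7 were above 0 and the median was 0.19 on the log2 scale, where 47.6% of all genes tested were above 0 and the median was -0.02. These 9 values come from the same libraries and are not independent of each other. In 2 of 10 members the groups did not overlap, Lmnb1 and Tmpo, where 13.3% of all genes did so in either direction.

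The 10 genes kept nearly the same order of levels per length in both groups apart from Lmnb1, which was 10 of 10 in Lmnb1-/- and 2 of 10 in wild type explants. Lmna was highest in both groups, ahead of Banf1, Tmpo and Emd in Lmnb1-/- explants and of Lmnb1, Banf1, Tmpo and Emd in wild type explants. The library ranges of Tmpo and Emd were apart in Lmnb1-/- explants and overlapped in wild type explants. Neighbours in this order whose library ranges overlapped in both groups were Zmpste24 and Lbr, Lmnb2 and Lemd3, and Lemd3 and Tor1aip1. The exon lengths include every annotated isoform; over the longest transcript alone Tmpo stood above Banf1, at rank 2 in Lmnb1-/- and 3 in wild type explants.

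The wild type libraries differed among themselves. Wild type replicate 1 was the highest wild type library for 5 of the 10 genes, Lmnb2, Lmna, Lbr, Tmpo and Banf1, and lay within the mutant range for Lmnb2, Lbr and Banf1. Wild type replicate 2, the shallowest library, was the lowest for Lmnb2, Lbr, Tmpo and Banf1. It was the highest wild type library for 3 others, Emd, Tor1aip1 and Zmpste24. The coefficient of variation of Lmnb2 was 18.8% in Lmnb1-/- and 26.3% in wild type explants, and that of Lbr was 5.49% in Lmnb1-/- and 18.8% in wild type explants. Male libraries alone, 3 Lmnb1-/- and 2 wild type, gave log2 fold changes of 0.41 for Lmnb2, 0.45 for Lbr, 0.46 for Tmpo and 0.42 for Banf1, and none was called by edgeR. Over 4669 genes with a mean of 40 to 420 CPM the median was 9.37% in Lmnb1-/- and 12.8% in wild type explants.

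A list of 16 cycling-cell genes was set beside these members, since the level of several nuclear envelope genes is known to vary with proliferation. The list was drawn up with earlier results of these data known. The mean of the list's centred log2 CPM was 0.25, 0.21 and 0.11 in Lmnb1-/- replicates 1 to 3 and 0.34, -0.46, -0.31 and -0.14 in wild type replicates 1 to 4. Wild type replicate 1 was thus the highest library for this list and wild type replicate 2 the lowest, as they were within the wild type group for Lmnb2, Lbr, Tmpo and Banf1. The other members did not share this order. Wild type replicate 2 was the highest wild type library for Emd, Tor1aip1 and Zmpste24, and wild type replicate 1 was the lowest for Emd and Lemd3. Of the 16 genes, 0 were called by edgeR, DESeq2 or limma voom. Above 0 were 14, and the median was 0.23 on the log2 scale against -0.02 for all genes. At an unadjusted p under 0.05 there were 5, all higher, where 13.7% of all genes tested passed in either direction. Pcna, the replication clamp, had the smallest p, at 59.9 ± 5.85 CPM in Lmnb1-/- and 36.2 ± 8.04 CPM in wild type explants (log2 fold change 0.71, edgeR adjusted p = 0.0838). The replication helicase genes Mcm3 and Mcm5 followed at 0.50 and 0.51 on the log2 scale. Mcm2 and Rrm2 were the others of the 5. The proliferation marker gene Mki67 and the cyclin gene Ccnb2 were below 0, at -0.08 and -0.02. The mitotic genes Bub1, Plk1, Aurkb and Ccnb1 were at 0.09, 0.13, 0.16 and 0.22, each with an unadjusted edgeR p above 0.05. The part of proliferation in the levels of Tmpo, Lbr, Lmnb2 and Banf1 was not tested.

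**Figure D4:**
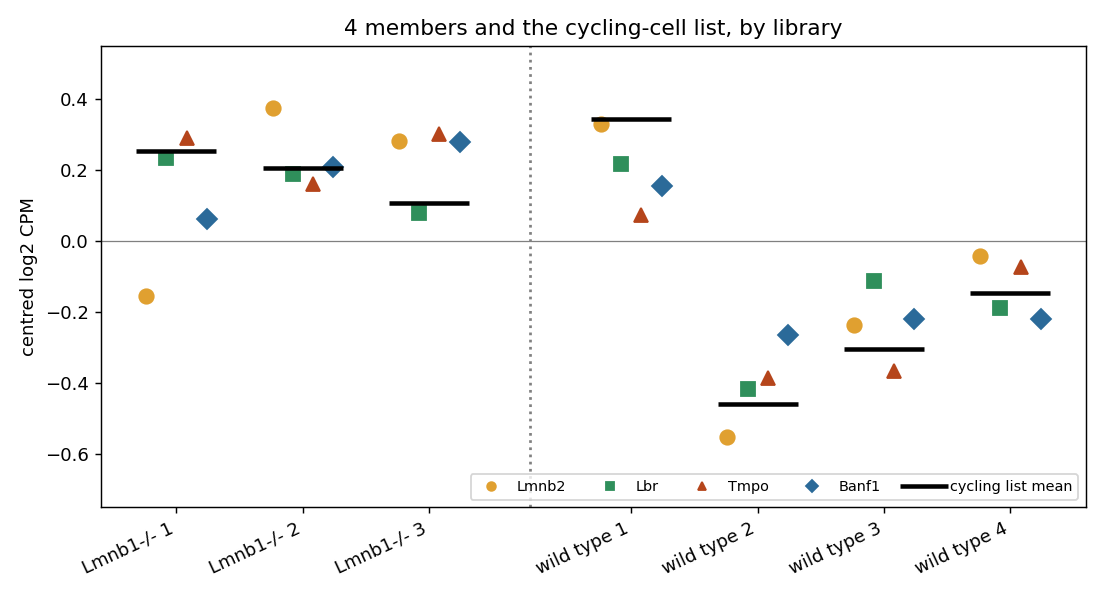
Centred log2 CPM of Lmnb2, Lbr, Tmpo and Banf1 in each library, with the mean of the 16 cycling-cell genes as a black bar; Lmnb1-/- libraries are left of the dotted line and wild type libraries right of it. Wild type replicate 1 sits above 0, at 0.34 for the cycling list, as do the mutant libraries apart from Lmnb2 in Lmnb1-/- replicate 1, and wild type replicates 2 to 4 sit below 0. The other members, which differ in this order, are not drawn.

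Genes with the most similar pattern over the 7 libraries were found by the root mean square difference of centred log2 CPM among 7882 genes with a mean log2 CPM of at least 4. No gene resembled Lmnb1: the nearest, the smooth muscle actin gene Actg2, differed by 2.18 on the log2 scale. For Lmnb2 they were Lig1, which encodes DNA ligase 1, and Cdc7, a kinase gene of replication origins, at 0.10 each. Tmpo was nearest to Pigm, a gene of GPI anchor synthesis, at 0.03, and Kpna3, an importin alpha gene, at 0.05. For Lmna they were Kpna6, another importin alpha gene, and Cdk12, a kinase gene, at 0.03 each. Lbr was nearest to Eif2s1, a translation initiation factor gene, and the gene listed as 2700094K13Rik, at 0.04 each. Small distances are easy to reach for genes that vary little, and no test was attached to them.

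Genes beside the targeted gene were also followed. The 3 nearest tested genes on each side in the annotation's order were Gramd3, Aldh7a1 and Phax before it and C330018D20Rik, Megf10 and Prrc1 after it. None was called by edgeR, with adjusted p from 0.0880 to 0.906. Aldh7a1, an aldehyde dehydrogenase gene, was at 134.3, 129.4 and 118.0 CPM in Lmnb1-/- and 82.2, 100.7, 98.5 and 87.6 CPM in wild type explants. All mutant libraries were higher, with a log2 fold change of 0.47 (SE 0.12, edgeR adjusted p = 0.0880). Megf10 was at 7.99, 7.81 and 8.69 CPM in Lmnb1-/- and 6.92, 7.19, 3.37 and 7.55 CPM in wild type explants, with a log2 fold change of 0.42 (SE 0.34, edgeR adjusted p = 0.629). In these 2 of the 6 genes all mutant libraries lay above all wild type libraries, as in 6.34% of all genes tested.

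Other proteins of the nuclear envelope membrane were covered by a list of 18 genes, of which 15 had a row and 14 were tested. No row was found by name for Sun1, Sun2 and Syne3, so their levels were not examined. edgeR and limma voom called 0 of the 14 and DESeq2 1 that was lower, and the median log2 fold change was -0.11. At an unadjusted p under 0.05 there were 3, all lower, beside the 13.7% of all genes. Syne1 and Syne2 encode the giant nesprins that link the nucleus to the cytoskeleton. Syne2 was at 714 ± 78.4 CPM in Lmnb1-/- and 936 ± 99.4 CPM in wild type explants, with a log2 fold change of -0.39 (SE 0.12, edgeR adjusted p = 0.157) and no overlap. Syne1 is listed on more than 1 row. Its row with most counts was at 29.0 ± 2.53 CPM in Lmnb1-/- and 58.7 ± 21.5 CPM in wild type explants, with a log2 fold change of -0.97 (SE 0.25, edgeR adjusted p = 0.114), also without overlap. In all, 3 of the 14 genes lay wholly below wild type, with Tor3a at -0.46 as the other, as did 6.93% of all genes tested. Tmem43, at 0.12, was the 1 gene wholly above, as were 6.34% of all genes. The gene listed as Ppapdc3 averaged 2.12 CPM in Lmnb1-/- and 4.88 CPM in wild type explants. Among the torsin genes, Tor1a and Tor1b had log2 fold changes of 0.01 and 0.06. Tor2a was at -0.17, Tor3a at the -0.46 given above, and Tor4a, listed as A830007P12Rik, at 0.17.

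Nuclear partners of these proteins were covered by 13 genes, among them Rb1 and Hdac3, whose products bind LAP2 and lamins, and the heterochromatin protein 1 genes Cbx1, Cbx3 and Cbx5. None was called by edgeR, DESeq2 or limma voom or had an unadjusted p under 0.05, and the median log2 fold change was -0.06. Cbx5 had a log2 fold change of -0.24 and Narf, whose product binds prelamin A, one of -0.22. Smads and their target genes, listed for MAN1, had a median of 0.07 over 12 genes and 0 calls by edgeR, DESeq2 or limma voom. In that list Smad3 and Smad1 had log2 fold changes of 0.32 and 0.31 and Id3, a BMP target gene, -0.18, and Smad3 was the 1 gene with an unadjusted p under 0.05.

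Lbr also encodes a sterol reductase that acts in cholesterol synthesis, next to Tm7sf2, which makes the same step and was below the filter at 0.959 to 2.79 CPM in Lmnb1-/- and 2.05 to 4.61 CPM in wild type explants. Of the other genes of this pathway, 11 were tested and 11 were below 0, and their median was -0.58 on the log2 scale. None was called by edgeR or limma voom, DESeq2 called 3 lower, and 8 were lower at an unadjusted p under 0.05, a threshold that 13.7% of all genes passed in either direction. In 7 of the 11 all mutant libraries lay below all wild type libraries, which 6.93% of all genes did. Fdft1, squalene synthase, was at 27.7 ± 4.38 CPM in Lmnb1-/- and 47.6 ± 8.88 CPM in wild type explants, and Sqle, squalene epoxidase, had a log2 fold change of -0.61. Lbr, at 0.26, lay on the other side of 0. The list was drawn up with earlier results of these data known, so its count is no independent evidence of direction.

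**Figure D5:**
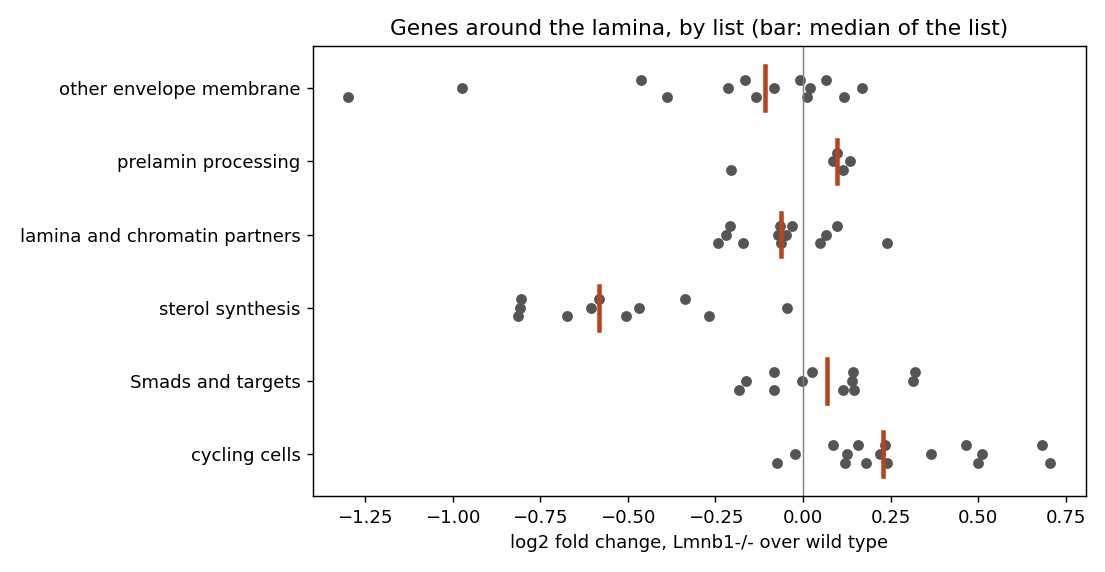
Log2 fold change, Lmnb1-/- over wild type, of each tested gene in 6 lists around the lamina (points, offset vertically for legibility) with the median of each list as a bar. The sterol synthesis list lies to the left with a median of -0.58, the cycling list to the right with 0.23, and the other 4 lists have medians between -0.11 and 0.10.

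Markers of other cell types were summed per library. Of the cardiomyocyte list Myh7 and Actn2 were at 0 counts in all 7 libraries. Other genes of the list were detected. Myl7 was at 295 to 432 CPM in Lmnb1-/- and 272 to 607 CPM in wild type libraries. Tnnt2 was at 114 to 121 CPM in Lmnb1-/- and 93.9 to 146 CPM in wild type libraries. Myl7 and Tnnt2 made up most of the list's summed level, which was 428 to 572 CPM in Lmnb1-/- and 373 to 767 CPM in wild type libraries. Among endothelial genes, Pecam1, Cdh5 and Emcn were at 4.46 CPM or less in every library. Kdr, a VEGF receptor gene, was at 7.99, 10.6 and 7.66 CPM in Lmnb1-/- and 5.19, 3.08, 1.87 and 2.94 CPM in wild type explants, without overlap (log2 fold change 1.40, edgeR adjusted p = 0.122). Such a separation upwards was found in 6.34% of all genes tested. The wild type values of Kdr rest on few reads, as 3 counts correspond to 2.93 CPM in wild type replicate 2. Tek, the other endothelial gene tested, went the other way (log2 fold change -0.50, edgeR adjusted p = 0.606, groups overlapping). The endothelial list, of which Tek made up the most, summed to 25.6 to 39.6 CPM in Lmnb1-/- and 20.6 to 48.2 CPM in wild type libraries. Leukocyte and blood genes varied most, from 34.9 to 378 CPM in Lmnb1-/- and from 52.8 to 224 CPM in wild type libraries. Smooth muscle genes did differ between the groups, with 7 of 7 below 0 and 4 called lower by edgeR, Cspg4, Des, Pdgfrb and Acta2. Of all genes tested, 47.6% were above 0 and 0.343% were called lower. The smooth muscle list summed to 8021 to 8756 CPM in Lmnb1-/- and 10731 to 11959 CPM in wild type libraries. In the epicardial list 7 of 10 were below 0 and 0 were called by edgeR or limma voom. DESeq2 called 2 lower and 1 higher, where it called 175 of all 10775 genes tested. An unadjusted edgeR p under 0.05 was reached by 3 lower and 2 higher, where 13.7% of all genes passed in either direction. The part of the smooth muscle genes and of Kdr in the members' levels was not tested.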

How the data were processed

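Each of 7 libraries had a deposited table with 22738 gene rows and 2 unnamed columns of whole-number counts, with no normalization recorded per the file headers. TopHat, edgeR and mm9 are named in the submitters' processing notes without settings; the counting program and annotation are not given in the sources used here. What separates the columns is not stated; the first was used, and the second held 16.6 to 19.6% of both. Rows that repeat a gene name numbered 649.

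Genes were filtered with filterByExpr, scaled by TMM and tested with edgeR 4.0.16 (limma 3.58.1, R 4.3.3), quasi-likelihood with robust dispersion and no covariate. DESeq2 was 1.42.0. The standard error is the size of the log2 fold change over the square root of F, and its 95% interval uses the fit's t distribution. Fits were tested on simulated counts. Replicates were compared by chi-square over genes and differed by 2.22 to 7.71 per degree of freedom, more than sampling noise. Chromosomes and exon lengths come from a GRCm38 annotation; no coordinates are printed because the files' build differs. Named genes are the 10 members, up to 3 genes of smallest p in each list and any gene called, cell type markers, nearest patterns and neighbours of Lmnb1; names outside this rule were picked with their values known. Members, lists and alternatives were chosen with earlier results of these data known. Some genes that this rule names are not reported here.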

Additional observations from a re-analysis of the deposited data

Results flagged for a closer look

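Among the 4 wild type libraries, a single library lay far from the other 3 in 9 of 125 genes checked, where chance flags about 1 in 20. Lemd3 was highest in wild type replicate 4 at 59.5 CPM, with the others at 46.7 to 47.6 CPM. Banf1 was highest in wild type replicate 1 at 73.1 CPM, with the others at 54.5 to 56.2 CPM. Wild type replicate 2 was highest for Ankle1, a LEM domain gene, at 7.19 CPM and lowest for Cbx3 at 8.22 CPM. Both rest on few reads, as 3 counts correspond to 2.93 CPM in that library. Wild type replicate 4 was highest for Gmcl1 at 28.1 CPM, for the leukocyte genes Ptprc and Csf1r at 33.5 and 82.6 CPM, and for Myh6 at 0.839 CPM, where the other 3 had 0 counts. The Myh6 value lies below the 1.25 CPM that 3 counts correspond to in that library. Megf10, the second tested gene after Lmnb1 in the annotation's order, was lowest in wild type replicate 3 at 3.37 CPM, where 3 counts correspond to 1.10 CPM.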

How the results depend on the processing

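Over 19 settings, the reported one included, Lmnb1 stayed called, with log2 fold changes from -7.31 to -6.93, and 0.611 to 0.806% of its wild type level remained on leaving out each library. The other 9 genes stayed uncalled in all of them, except Tmpo without wild type replicate 1, where 1 member was called higher. Signs turned near 0. Lmna was at 0.0147 with library totals, 0.0465 with sex as a covariate, 0.0446 in male libraries and -0.0753 to 0.0491 on leaving out a library, highest without wild type replicate 1. Emd was at 0.0107 with library totals, 0.00135 with grouped library numbers as a term and -0.0904 to 0.000501 on leaving out a library, above 0 without Lmnb1-/- replicate 2 (0.000165) or wild type replicate 2. Lmnb2 was at -0.0133 with grouped library numbers as a term. Fold changes with that term do not draw on wild type replicates 2 and 3, which form a group without a mutant library.

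Over all genes, the 76 calls became 180 with no filter (16754 genes tested), 175 with DESeq2, 46 with limma voom, 44 with both count columns summed and 37 with sex as a covariate. Leaving out a library gave 3 to 279: 4, 3 and 13 without Lmnb1-/- replicates 1, 2 and 3, then 279, 40, 4 and 28 without each wild type replicate in turn. Library totals gave 47 higher and 26 lower calls, where TMM gave 39 and 37. The sterol list had 3 calls with no filter, 3 with DESeq2 and 0 to 2 on leaving out a library. The cycling list had 1 with no filter and 0 to 6, and the other membrane list 1 with no filter, 1 with DESeq2 and 0 to 1. Each maximum came without wild type replicate 1. The cause was not tested.

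The labels do not say whether the replicate numbers pair the samples. Deviations of same-numbered libraries correlated at 0.26, -0.16 and -0.09. These values cannot settle it, because differently numbered libraries were not compared in this way. With the replicate block, which leaves out wild type replicate 4, 86 genes were called against 28 in the same 6 libraries without it, and Tmpo was at 0.48 (edgeR adjusted p = 0.0991). Over longest transcripts, B-type lamin RNA in Lmnb1-/- was 0.207 times wild type.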
